A study of Mus musculus with 18 samples.

Results

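The genes described here make up the oxygen-sensing branch of the hypoxia response together with a set of its known targets: Hif1a, Epas1, Egln1, Egln2, Egln3, Vegfa, Ankrd37, Pfkfb3, Ndrg1 and Adm. They were taken by symbol, and each matched 1 Ensembl gene identifier, giving 10 genes of the 28030 in the deposited table of estimated read counts. Of these, 9 had enough counts to be tested and Adm did not. RNA had been sequenced from hepatocytes of wild-type C57BL/6J male mice aged 12 weeks on normal chow, separated by digitonin perfusion into pericentral cells, which lie around the central vein where blood leaves the lobule, and periportal cells, which lie where it enters. Each zone was sampled in 3 feeding states with 3 libraries per group, 18 in all. All mice were trained for 3 days on an overnight fast of 16 h. A feeding of 4 h and 20% sucrose in the drinking water are recorded for every group, the fasted ones included. Fed mice (0 h) were killed at clock hour 13 after the 4 h with food. The other mice were killed after 8 h of fasting, at clock hour 21, or after 24 h, again at clock hour 13. At 8 h, hours of fasting and hour of the day thus changed together, and their effects cannot be told apart. The labels number the replicates but do not say whether libraries came from separate mice, so p-values measure the spread between these libraries, which may be partly technical.

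Cells sense oxygen through hydroxylation of the hypoxia-inducible factors. In oxygenated cells the prolyl hydroxylases encoded by the Egln genes mark the alpha subunits HIF-1α (Hif1a) and HIF-2α (Epas1), the von Hippel-Lindau protein binds the marked subunits, and they are degraded. When oxygen is low the alpha subunits persist, pair with ARNT and bind DNA at target genes, among them Vegfa, Egln3, Ankrd37, Pfkfb3, Ndrg1 and Adm. Regulation is therefore largely at the protein level, which messenger RNA does not report. In the liver, oxygen falls along the path of the blood from the portal to the central side of the lobule.

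The libraries held 18359900 to 26384400 estimated counts. Levels below are CPM, estimated counts scaled to a common library total with edgeR's TMM factors. They are not divided by transcript length, so they compare 1 gene across libraries and not genes with each other. The zone labels were met by Cyp2e1, at 7611 to 16062 CPM in pericentral and 325 to 1826 in periportal libraries, and by Cyp2f2, at 132 to 793 and 1578 to 3075. The pericentral marker Glul ran from 111 to 1375 CPM in pericentral libraries against 62.6 to 175, the low end being the library PC 24 h replicate 2. The 8 periportal markers summed to 436 to 7135 CPM in pericentral and 5004 to 12183 in periportal libraries, which overlapped. Their median log2 fold change between zones was 3.59 fed, 3.31 at 8 h and 1.85 at 24 h. In pericentral cells edgeR called 7 of these 8 higher at 24 h than fed (21.8% of all genes were called). The 7 hepatocyte markers summed to 62701 to 104645 CPM in pericentral and 117047 to 196895 in periportal libraries, without overlap. Sums for other cell types were low but not equal between zones: the 10 endothelial markers summed to 5.60 to 14.0 CPM in pericentral and 6.15 to 49.2 in periportal libraries, with the highest sum in PP 8 h replicate 3, and none of the 10 was at 0 throughout any group. The 11 Kupffer cell and leukocyte markers summed to 0.744 to 6.32 and 0.929 to 24.8 CPM, the 8 stellate markers to 0.942 to 6.47 and 1.25 to 18.4, and the 6 cholangiocyte markers to 19.3 to 37.6 and 32.8 to 56.7, Epcam being at 0 in all 6 groups. The 5 red cell markers summed to 38.1 to 66.7 and 32.0 to 92.1 CPM. Taken singly they differed more than these sums. Their median log2 fold change of periportal against pericentral cells was 4.10 fed, 1.23 at 8 h and 2.10 at 24 h. EdgeR called 0 of the 5 in each state and 2, both higher, averaged over the states (20.3% of all genes were called). In that average 8 of 9 tested endothelial markers and 5 of 8 Kupffer cell and leukocyte markers were called, all higher in periportal cells. The medians over the tested markers were 1.84 and 1.90 in log2. Of the stellate markers 1 of 5 tested was called and of the cholangiocyte markers 2 of 3, all higher. In single states edgeR called at most 1 endothelial marker and 0 Kupffer cell and leukocyte markers. The part of these cells in the results below was not tested.

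Egln3 was the member called between zones in each of the 3 states. This prolyl hydroxylase, itself a HIF target, was 2.51-fold lower in periportal than in pericentral hepatocytes in the fed state, 2.79-fold lower after 8 h and 3.51-fold lower after 24 h of fasting. Ndrg1, a stress-responsive target, was 6.11-fold higher after 8 h than in the fed state in pericentral hepatocytes and was lower again at 24 h. Vegfa, the main angiogenic ligand of the set, fell with fasting in both zones, by 1.85-fold at 8 h in pericentral hepatocytes. The alpha subunits and the other hydroxylases had log2 fold changes of at most 0.48 in size in the comparisons that were called. In bulk samples fewer cells that hold an RNA and less of it per cell cannot be told apart.

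In the comparison of zones, edgeR called 1 of the 9 tested members in the fed state, where 8.01% of all 12477 tested genes were called, 2 at 8 h, against 7.14%, and 1 at 24 h, against 4.17%. Each of these calls was lower in periportal cells. Averaged over the 3 states, 4 members were called, 2 higher and 2 lower, against 20.3% of all genes. In pericentral cells 3 members were called at 8 h against fed, with a background of 13.8%, and 1 at 24 h, with a background of 21.8%. In periportal cells 3 were called at 8 h, with a background of 14.4%, and 5 at 24 h, with a background of 19.6%. Between 8 h and 24 h, 2 members were called in pericentral cells (9.71% of all genes) and 0 in periportal cells (7.46%), where edgeR gave 3 members an unadjusted p under 0.05, DESeq2 called 1 and limma-voom 0. Some counts hung on single libraries. The periportal count at 8 h was 1 without PP fed replicate 1 or PP 8 h replicate 2 and 0 without PP fed replicate 2 or PP 8 h replicate 3. The periportal count at 24 h was 0 without PP fed replicate 2 or PP 24 h replicate 1, and 2 without PP fed replicate 1 or PP 24 h replicate 2 or 3. The pericentral count at 24 h was 0 without PC fed replicate 1 or PC 24 h replicate 3, that between 8 h and 24 h was 1 without PC 24 h replicate 1 or 2 or PC 8 h replicate 2 or 3, and the fed zone count was 2 without PP fed replicate 1. The zone and fasting comparisons share libraries and are not independent of each other.

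**Figure D1:**
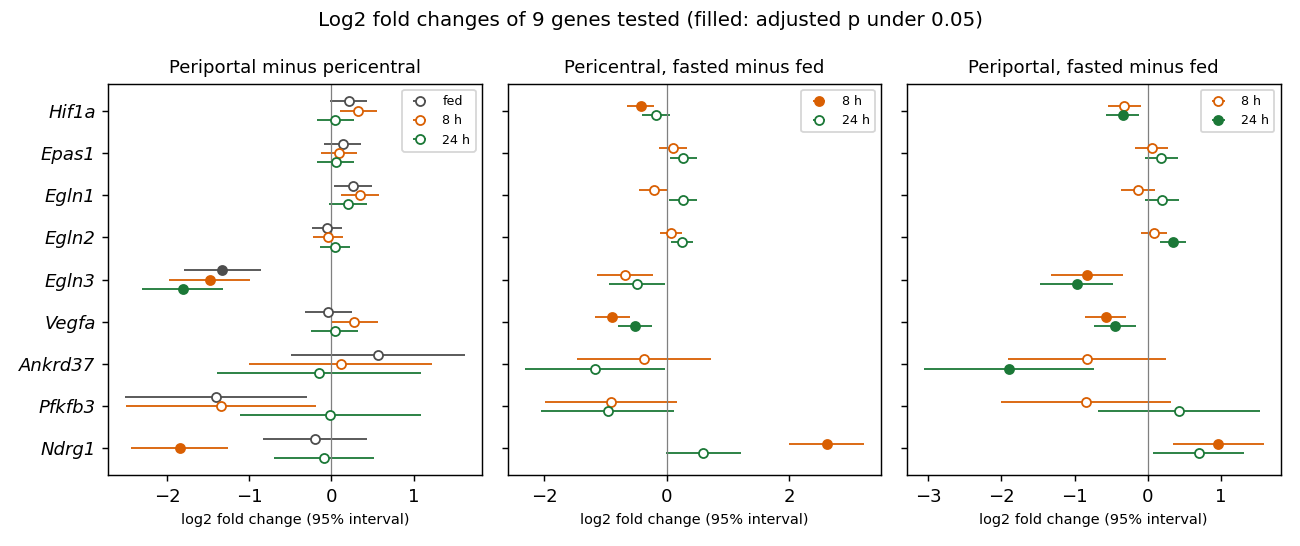
Log2 fold changes of the 9 tested members between zones in each state and between fasting and fed in each zone, filled where called, with bars for the 95% interval from the edgeR fit. Egln3 lies below 0 in every comparison of periportal with pericentral cells, and Ndrg1 at 8 h in pericentral cells lies at 2.61.

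Of the subunits, Hif1a (ENSMUSG00000021109, chr12:73901375-73947530, plus strand, GENCODE M21 on mm10) is the alpha subunit that acts on glycolytic genes. Its mRNA was highest in the fed groups and lowest in pericentral cells at 8 h. In pericentral libraries Hif1a measured 50.9, 43.9 and 40.3 CPM fed, 29.00, 36.6 and 34.6 at 8 h and 34.6, 41.4 and 43.9 at 24 h. In periportal libraries it measured 53.1, 49.9 and 53.7 CPM fed, 42.97, 39.5 and 43.2 at 8 h and 37.2, 41.4 and 45.3 at 24 h. The 8 h libraries lay below the fed libraries in both zones without overlap, and at 24 h this held in periportal cells only, the pericentral groups overlapping. Hif1a fell by 0.43 in log2 (SE 0.12, edgeR adjusted p = 0.0183) at 8 h in pericentral cells. That call was lost when the fit held only those groups (adjusted p = 0.0618 by edgeR) and without PC fed replicate 1 (-0.33) or PC 8 h replicate 1 (-0.34). In periportal cells it was -0.32 (SE 0.12, edgeR adjusted p = 0.0749) at 8 h, which was not called, and -0.34 (SE 0.12, edgeR adjusted p = 0.0481) at 24 h, which was called at the edge of the threshold and was lost in 15 of 27 alternatives. Among these were the fits without any 1 of the PP fed replicates, PP 24 h or PP 8 h replicate 2, PP 24 h replicate 1, PP 8 h or PC 8 h replicate 3 or PC fed replicate 2 (-0.27 to -0.38). Hif1a was lower in pericentral than in periportal cells when the states were averaged, the difference being 0.20 (SE 0.07, edgeR adjusted p = 0.0458), and this was lost in 16 of 26 alternatives, 13 of them leaving out a single library (0.16 to 0.20). The libraries whose loss kept it were PC fed replicate 1, PC 8 h and PP 8 h replicate 2, PC 24 h replicate 3 and PP 24 h replicate 1. In no single state was its zone difference called. At 8 h the periportal libraries lay above the pericentral ones, at 0.33 (SE 0.12, edgeR adjusted p = 0.104). The pericentral difference between 8 h and 24 h was 0.26 (SE 0.12, edgeR adjusted p = 0.180), with overlapping libraries.

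The promoter of Hif1a is shown for its CACGTG element, the E-box core. Among the 8 members in the promoter table, no other first listed start had one. Of all 32851 promoters in the table, 6.0% held this element in the same window. It is the 250 bases before the first RefSeq start on GRCm38.p6, chr12:73907617-73907866, plus strand, with the HIF core motif in capitals (ACGTG or GCGTG, searched on both strands). Matches begin 135, 134 and 70 bases before the start, the first pair being the 2 strands of CACGTG, which holds ACGTG on each.
Hif1a: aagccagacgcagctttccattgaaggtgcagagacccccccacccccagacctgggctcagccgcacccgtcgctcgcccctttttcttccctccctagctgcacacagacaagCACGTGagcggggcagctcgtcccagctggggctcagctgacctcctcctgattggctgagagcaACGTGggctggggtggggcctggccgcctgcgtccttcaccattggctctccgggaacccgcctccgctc

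Epas1 (chr17:86753700-86833410, plus strand), the alpha subunit HIF-2α, which endothelial cells also express strongly, was called in no comparison. It measured 119, 109.9 and 107 CPM in pericentral fed libraries, 125, 112 and 123 at 8 h and 130.4, 148 and 127 at 24 h. In periportal libraries Epas1 measured 116, 131 and 123 CPM fed, 144, 124 and 116 at 8 h and 135, 165 and 120.1 at 24 h. Its group means spanned 112 to 140 CPM, a ratio of 1.25, and the libraries of each pair of neighbours in the order of means overlapped. In the pericentral comparison of 24 h with fed, the libraries did not overlap and Epas1 had a log2 fold change of 0.27 (SE 0.11, edgeR adjusted p = 0.105), not called. For the zones averaged over states the 95% interval ran from -0.03 to 0.22. The library with the highest endothelial marker sum, PP 8 h replicate 3, had the lowest Epas1 level of its group. This is 1 library, and the part of endothelial cells in the Epas1 levels was not tested.

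**Figure D2:**
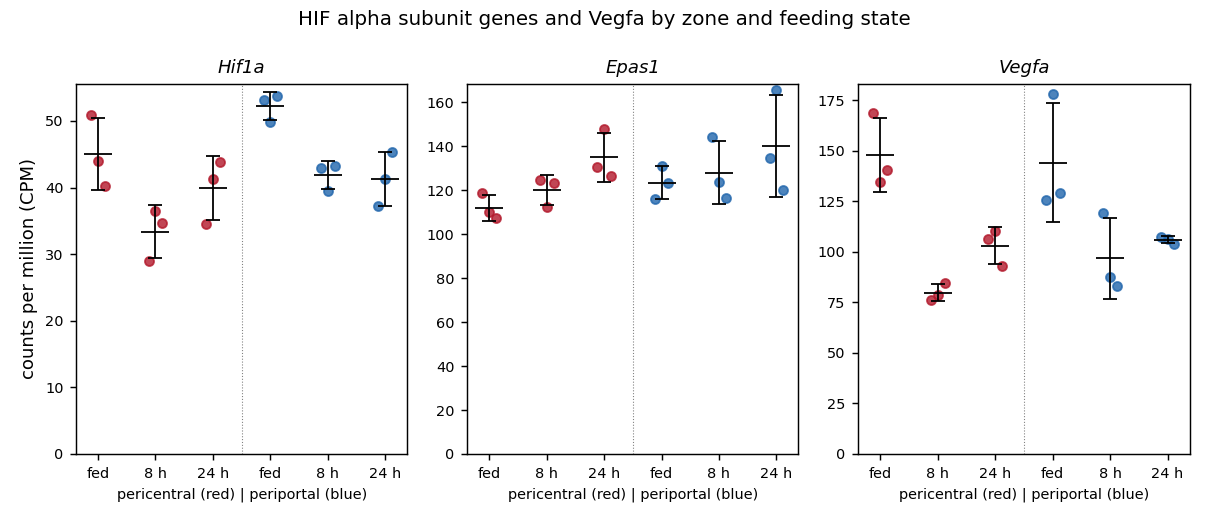
CPM of Hif1a, Epas1 and Vegfa in each of the 18 libraries, by zone and feeding state, points being libraries and bars the mean of 3 with its SD. Vegfa runs from 135 to 168 CPM in pericentral fed libraries and from 76.1 to 84.4 after 8 h, whereas Epas1 group means lie between 112 and 140 CPM.

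The 3 prolyl hydroxylases differed in how they varied across zone and state. Egln3 followed zone, Egln1 had a smaller and opposite zone difference averaged over the states, and Egln2 was called in 1 fasting comparison and in no zone comparison. Their promoters are shown to let these patterns be set beside the bases in front of each gene, with the HIF core motif in capitals as above. They are the 250 bases before the first listed RefSeq start on GRCm38.p6, all on the minus strand, at chr12:54203875-54204124 for Egln3, chr8:124949255-124949504 for Egln1 and chr7:27166803-27167052 for Egln2.
Egln3: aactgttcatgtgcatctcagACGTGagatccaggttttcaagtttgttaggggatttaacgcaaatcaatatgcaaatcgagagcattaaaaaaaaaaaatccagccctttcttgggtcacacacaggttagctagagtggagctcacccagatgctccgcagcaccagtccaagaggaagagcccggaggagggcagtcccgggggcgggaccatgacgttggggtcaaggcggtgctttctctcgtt
Egln1: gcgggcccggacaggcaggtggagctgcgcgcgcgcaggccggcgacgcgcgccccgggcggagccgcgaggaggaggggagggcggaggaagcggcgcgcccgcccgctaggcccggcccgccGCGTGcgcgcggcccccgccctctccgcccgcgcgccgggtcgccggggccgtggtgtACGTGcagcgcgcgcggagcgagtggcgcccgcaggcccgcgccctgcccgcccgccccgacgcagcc
Egln2: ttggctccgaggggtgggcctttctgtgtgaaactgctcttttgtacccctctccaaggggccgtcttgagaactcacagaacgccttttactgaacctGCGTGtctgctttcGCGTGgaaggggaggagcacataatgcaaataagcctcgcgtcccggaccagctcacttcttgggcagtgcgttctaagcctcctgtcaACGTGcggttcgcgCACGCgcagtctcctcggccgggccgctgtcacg
Egln3 had 1 match, which begins 229 bases before the start, Egln1 had 2, at 126 and 68 bases, and Egln2 had 4, at 151, 137, 48 and 34. The GC content of the windows was 50.8%, 86.0% and 59.2%, against a median of 52.4% over all promoters of the table. Promoters of 8 of the 10 genes were in the table (all but Epas1 and Ndrg1), and 7 of these 8 held the motif before their first listed start, as did 38.6% of the 32851 promoters in the table. A match is a run of letters and not a bound site.

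Egln3 (chr12:54178981-54203860, minus strand) encodes the hydroxylase PHD3, which HIF induces and which limits the HIF response in turn. In pericentral libraries it measured 21.2, 23.1 and 17.9 CPM fed, 9.75, 14.04 and 15.00 at 8 h and 14.8, 16.2 and 13.3 at 24 h. In periportal libraries it measured 8.13, 10.9 and 5.77 CPM fed, 6.06, 3.38 and 4.43 at 8 h and 3.52, 5.45 and 3.59 at 24 h. Within each state all 3 pericentral libraries lay above all 3 periportal libraries, the closest being 9.75 and 6.06 CPM at 8 h. The log2 fold change of periportal against pericentral cells was -1.33 (SE 0.24, edgeR adjusted p = 0.00197) in the fed state, -1.48 (SE 0.25, edgeR adjusted p = 0.00146) at 8 h and -1.81 (SE 0.25, edgeR adjusted p = 5.82e-04) at 24 h. Averaged over the states it was -1.54 (SE 0.14, edgeR adjusted p = 1.04e-06). These 4 calls held in every alternative run, the fold change in a state ranging from -1.13 to -2.05. In PC 24 h replicate 2, the pericentral library with the lowest Glul, Egln3 was 16.2 CPM, the highest of its group. This is 1 library of a group that spanned 13.3 to 16.2 CPM, and a link between Egln3 and Glul was not tested.

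Egln3 was also lower after fasting in periportal cells. There it was -0.83 (SE 0.25, edgeR adjusted p = 0.0350) at 8 h and -0.97 (SE 0.26, edgeR adjusted p = 0.0135) at 24 h. The libraries overlapped at 8 h (6.06 CPM against a lowest fed value of 5.77) and not at 24 h. Both calls depended on single libraries: that at 8 h was lost without PP fed replicate 1 (-0.84) or 2 (-0.58) or PP 8 h replicate 2 (-0.65) or 3 (-0.80), with limma-voom (adjusted p = 0.0653), with no count filter (edgeR adjusted p = 0.0506), with only those groups in the fit (edgeR adjusted p = 0.116) and without the 2 libraries that stood apart, PC 24 h replicate 2 and PP 8 h replicate 3 (edgeR adjusted p = 0.11). That at 24 h was lost without PP fed replicate 2 (-0.72) or PP 24 h replicate 1 or 3 (-0.87 for each). In pericentral cells all fasted libraries lay below all fed libraries. EdgeR called neither time, giving -0.68 (SE 0.23, edgeR adjusted p = 0.0655) at 8 h and an adjusted p of 0.152 at 24 h. DESeq2 (adjusted p = 0.0356) and limma-voom (adjusted p = 0.0256) called the pericentral difference at 8 h, as did edgeR without PP fed replicate 2 or 3 or PP 8 h replicate 1 (-0.67 for each). The fasting change was not called as different between zones: at 24 h the periportal change minus the pericentral was -0.48 with a 95% interval from -1.16 to 0.19. In the order of group means, the pericentral fed group stood apart from the next, pericentral 24 h, and each later pair of neighbours overlapped, pericentral 8 h and periportal fed by the libraries at 9.75 and 10.9 CPM.

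Egln1 (chr8:124908587-124949324, minus strand), which encodes PHD2, the main hydroxylase of HIF-1α in most tissues, measured 24.4, 23.2 and 23.3 CPM in pericentral fed libraries, 21.5, 20.00 and 19.5 at 8 h and 29.4, 28.3 and 27.04 at 24 h. In periportal libraries Egln1 measured 22.9, 28.5 and 33.9 CPM fed, 24.7, 26.5 and 26.7 at 8 h and 29.01, 36.5 and 32.2 at 24 h. The zones separated at 8 h and overlapped in the other states. Averaged over the states Egln1 was higher in periportal cells by 0.28 (SE 0.07, edgeR adjusted p = 0.00810) in log2, a call that held in all 26 alternatives. In no single state was it called, the log2 fold changes being 0.27 (SE 0.12, edgeR adjusted p = 0.202) fed and 0.35 (SE 0.12, edgeR adjusted p = 0.0889) at 8 h, and both became calls without PP fed replicate 1 (0.40 and 0.35). In pericentral cells Egln1 rose between 8 h and 24 h by 0.48 (SE 0.12, edgeR adjusted p = 0.0190), with no overlap of libraries. That call was lost without PC 24 h replicate 1 (0.43) or 2 (0.46) or PC 8 h replicate 2 (0.44) or 3 (0.43), and without PC 24 h replicate 2 and PP 8 h replicate 3 together (0.47). Differences that were not called were 0.26 (SE 0.12, edgeR adjusted p = 0.132) for 24 h against fed in pericentral cells and 0.33 (SE 0.12, edgeR adjusted p = 0.103) for 24 h against 8 h in periportal cells. The direction of its zone difference averaged over the states was opposite to that of Egln3.

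Egln2 (chr7:27158658-27166802, minus strand) encodes PHD1. Its exons share 11 bases with Cyp2t4. It measured 53.3, 56.9 and 58.4 CPM in pericentral fed libraries, 63.5, 60.1 and 53.3 at 8 h and 68.8, 64.1 and 66.8 at 24 h. In periportal libraries Egln2 measured 49.2, 52.8 and 60.2 CPM fed, 58.6, 57.2 and 55.9 at 8 h and 75.1, 65.9 and 64.7 at 24 h. The 24 h libraries lay above the fed libraries in both zones without overlap. Egln2 at 24 h against fed stood at 0.34 (SE 0.09, edgeR adjusted p = 0.0150) in log2 in periportal cells and 0.24 (SE 0.09, edgeR adjusted p = 0.0659) in pericentral cells, where it was not called by edgeR but was by DESeq2 (adjusted p = 0.0483). The periportal call was lost with only those groups in the fit (edgeR adjusted p = 0.0578) and without PP fed replicate 1 (0.28) or 2 (0.32) or PP 24 h replicate 1 (0.27). From 8 h to 24 h in periportal cells Egln2 differed by 0.26 (SE 0.09, edgeR adjusted p = 0.0970), without overlap, which DESeq2 called (adjusted p = 0.0462) and edgeR did not. Between zones the mean difference over states had a 95% interval from -0.12 to 0.08 in log2, the narrowest of the 9 tested members.

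**Figure D3:**
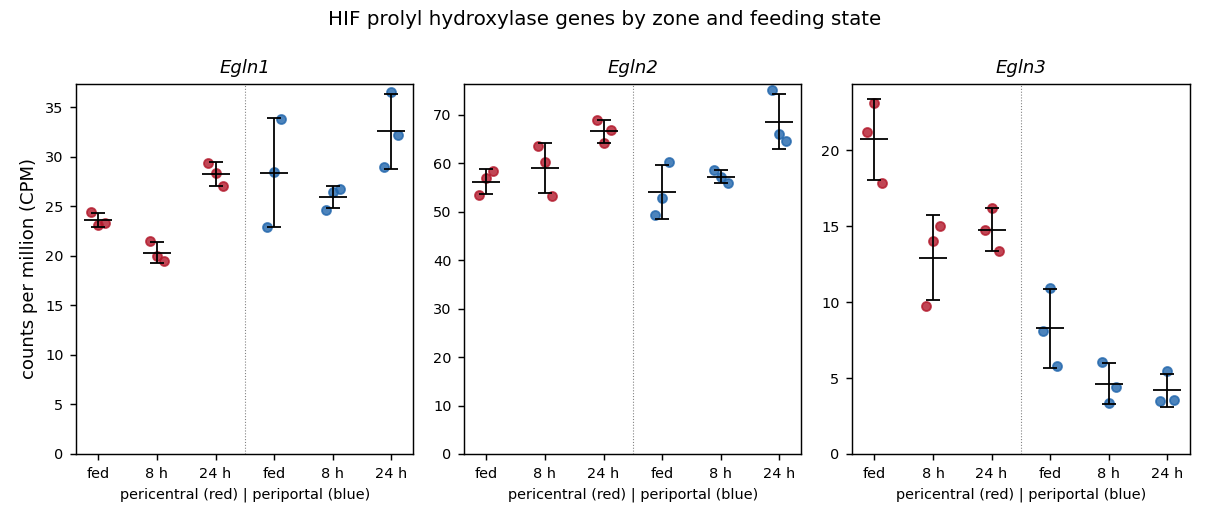
CPM of Egln1, Egln2 and Egln3 in each of the 18 libraries, by zone and feeding state, points being libraries and bars the mean of 3 with its SD. Egln3 lies at 9.75 to 23.1 CPM in pericentral and 3.38 to 10.9 in periportal libraries, while Egln2 overlaps between zones in each state.

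Among the targets, Vegfa (chr17:46016993-46032369, minus strand) encodes the ligand VEGF-A, which hepatocytes supply to the endothelium of the sinusoids. In pericentral libraries it measured 168, 135 and 140.5 CPM fed, 76.1, 78.7 and 84.4 at 8 h and 106, 110.0 and 92.97 at 24 h. In periportal libraries it measured 125, 178 and 129 CPM fed, 119, 87.6 and 83.02 at 8 h and 107, 106 and 104 at 24 h. Every fasted library lay below every fed library of its zone. In pericentral cells Vegfa fell by 0.89 in log2 at 8 h (SE 0.15, edgeR adjusted p = 5.56e-04), a call that held in all 27 alternatives, and was -0.52 (SE 0.15, edgeR adjusted p = 0.0166) at 24 h. The latter was lost without PC fed replicate 1 (-0.42) or PC 24 h replicate 3 (-0.46). The pericentral 24 h libraries lay above those of 8 h, at 0.37 (SE 0.15, edgeR adjusted p = 0.123), which was not called. The periportal changes were -0.58 (SE 0.15, edgeR adjusted p = 0.0133) at 8 h and -0.45 (SE 0.15, edgeR adjusted p = 0.0402) at 24 h. The first was lost without PP fed replicate 2 (-0.39) or PP 8 h replicate 2 (-0.51) or 3 (-0.48), and the second without PP fed replicate 2 (-0.27) or any of the PP 24 h replicates (-0.43 to -0.46). With only those groups in the fit, edgeR's adjusted p was 0.101 at 8 h and 0.0572 at 24 h. PP 8 h replicate 3, with the high endothelial sum, had the lowest Vegfa level of its group. The part of endothelial cells in the Vegfa levels was not tested. Without PP 8 h replicate 3 and PC 24 h replicate 2 the periportal 8 h comparison had an edgeR adjusted p of 0.0722.

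No zone comparison of Vegfa was called. Its mean difference between zones had a 95% interval from -0.07 to 0.26 in log2. At 8 h the zone difference was 0.28 with an interval from -0.01 to 0.56, and the lowest periportal library (83.02 CPM) lay under the highest pericentral library (84.4 CPM). Its promoter is shown because, unlike the 7 other members in the table, its first listed start has no HIF core match. Of all 32851 promoters in the table, 38.6% held a match, so most lacked one too. A second listed start has 2 matches, but its window, chr17:46025164-46025413, lies inside the gene. The window shown is that of the first start, chr17:46032378-46032627, minus strand, GRCm38.p6.
Vegfa: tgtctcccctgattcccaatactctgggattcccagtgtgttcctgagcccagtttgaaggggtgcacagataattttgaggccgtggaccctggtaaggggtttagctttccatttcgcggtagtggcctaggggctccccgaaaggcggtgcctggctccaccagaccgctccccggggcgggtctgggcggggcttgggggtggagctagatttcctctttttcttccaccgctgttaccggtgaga

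Ndrg1 (chr15:66929318-66969640, minus strand) encodes a cytosolic protein induced by hypoxia and other stresses. In pericentral libraries it measured 1.62, 2.87 and 2.41 CPM fed, 13.97, 15.6 and 12.6 at 8 h and 2.46, 3.01 and 4.99 at 24 h. In periportal libraries it measured 2.56, 1.28 and 2.17 CPM fed, 5.09, 2.67 and 3.96 at 8 h and 2.40, 3.66 and 3.63 at 24 h. The 3 pericentral libraries at 8 h stood above the other 15 libraries, whose highest value was 5.09 CPM. In pericentral cells Ndrg1 rose by 2.61 (SE 0.31, edgeR adjusted p = 3.83e-05) in log2 between the fed state and 8 h. It then changed by -2.02 (SE 0.30, edgeR adjusted p = 7.66e-04) between 8 h and 24 h. At 8 h the log2 fold change of periportal against pericentral cells was -1.84 (SE 0.30, edgeR adjusted p = 9.74e-04), or 3.59-fold lower. These 3 calls held in all 27 alternatives. The zone difference averaged over states, -0.71 (SE 0.18, edgeR adjusted p = 0.00855), held in all 26. In the fed state and at 24 h the zones overlapped and were not called.

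In periportal cells the change of Ndrg1 at 8 h was 0.97 (SE 0.32, edgeR adjusted p = 0.0498), at the edge of the threshold. It was lost in 19 of 27 alternatives, 13 of them leaving out a single library, with log2 fold changes from 0.73 to 1.18. It held without PC fed, PC 24 h or PP 24 h replicate 1, PP 8 h replicate 2 or PC 24 h replicate 3. At 24 h against fed it was 0.70 (SE 0.32, edgeR adjusted p = 0.141), with overlapping libraries and not called. The test of whether the 8 h change differed between zones gave -1.65 (SE 0.44, unadjusted p = 0.00158), the change being smaller in periportal cells, but edgeR's adjusted p over all genes was 0.909. Across all members this test called 0 at 8 h, with 1 at an unadjusted p under 0.05, and 0 at 24 h, with 0 at that level. DESeq2 and limma-voom called 0 in both. The share of all genes that edgeR called in these tests was 0% at 8 h and 0.016% at 24 h. The peak of Ndrg1 fell in the groups that also differ in clock hour.

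Ankrd37, Pfkfb3 and Adm were measured with less precision. Ankrd37 (chr8:45996902-46005707, minus strand) encodes an ankyrin repeat protein and is a direct HIF target. It had 4 to 56 counts per library, and 406 of its 1539 exon bases overlap Ufsp2 and Lrp2bp on the other strand, so without known strand use its counts may include theirs. In pericentral libraries it measured 1.59, 0.473 and 0.623 CPM fed, 0.533, 0.651 and 0.889 at 8 h and 0.195, 0.368 and 0.643 at 24 h. In periportal libraries it measured 1.11, 2.24 and 0.661 CPM fed, 0.888, 0.978 and 0.373 at 8 h and 0.224, 0.457 and 0.368 at 24 h. The periportal 24 h libraries lay below the fed libraries, and edgeR called this change at -1.90 (SE 0.59, edgeR adjusted p = 0.0330). That call was lost without PP fed replicate 1 (-2.01) or 2 (-1.31) or PP 24 h replicate 1 (-1.68), 2 (-2.14) or 3 (-1.92) and with limma-voom (adjusted p = 0.0774). The neighbours in the order of its group means all overlapped.

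Pfkfb3 (chr2:11471433-11554077, minus strand) encodes an enzyme that makes the main allosteric activator of phosphofructokinase and so drives glycolysis. It measured 24.8, 22.5 and 20.9 CPM in pericentral fed libraries, 16.5, 13.1 and 6.65 at 8 h and 20.8, 3.93 and 10.3 at 24 h. In periportal libraries Pfkfb3 measured 12.3, 8.43 and 5.18 CPM fed, 2.75, 3.60 and 8.06 at 8 h and 8.22, 8.11 and 18.3 at 24 h. The pericentral fed libraries were tight and high, and the fasted groups scattered widely, with PC 24 h replicate 2 at 3.93 CPM against 20.8 in replicate 1. The periportal fed libraries lay below the pericentral fed libraries without overlap, at -1.40 (SE 0.56, edgeR adjusted p = 0.165), and edgeR did not call it. With only those groups in the fit it was called (-1.41, edgeR adjusted p = 0.0249). At 8 h the zones overlapped, at -1.34 (SE 0.59, edgeR adjusted p = 0.211). The periportal libraries of 24 h lay above those of 8 h, at 1.28 (SE 0.59, edgeR adjusted p = 0.222), and neither was called. The mean over states, -0.92 (SE 0.33, edgeR adjusted p = 0.0663), was called by DESeq2 (adjusted p = 0.039) and by edgeR without PC 24 h replicate 2 (-1.07), as well as without PC 8 h, PP 8 h or PP 24 h replicate 3. Without PC 24 h replicate 2 and PP 8 h replicate 3 together it was -1.25 (edgeR adjusted p = 0.00662).

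Adm (chr7:110627661-110629820, plus strand), the gene of the vasodilator peptide adrenomedullin, was near the floor of detection. It had 0 to 13.2 estimated counts per library, or at most 0.519 CPM. No fold change is given, and a difference between groups was not detectable at this depth.

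**Figure D4:**
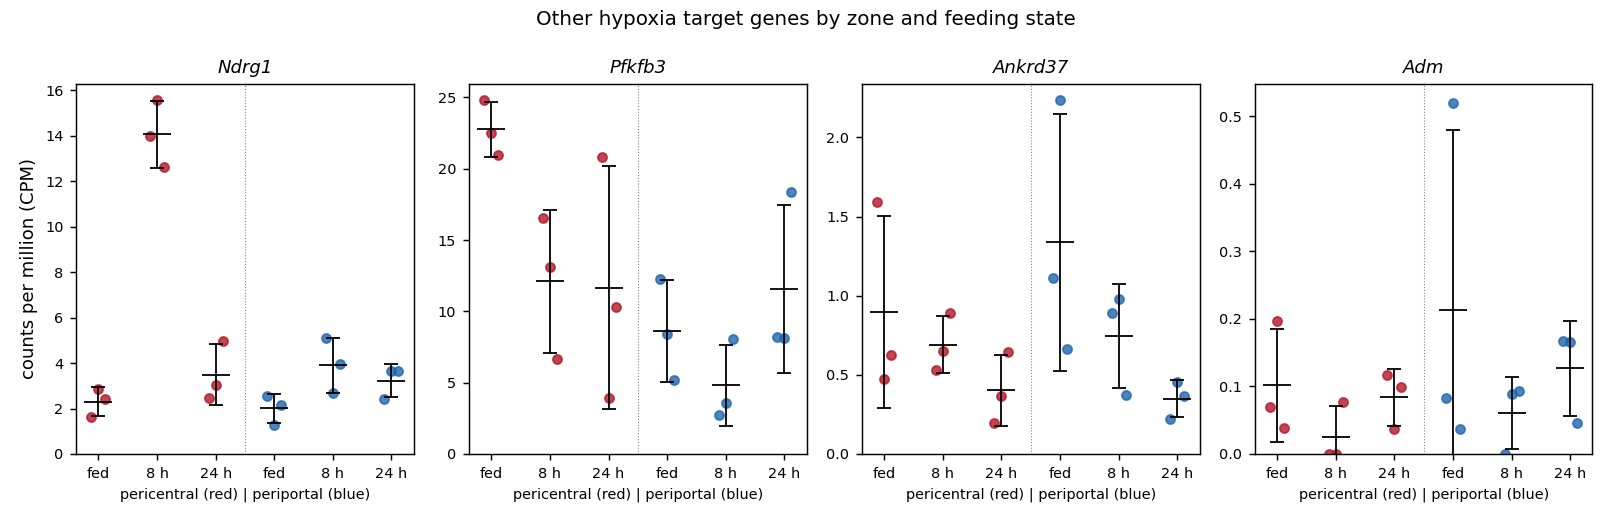
CPM of Ndrg1, Ankrd37, Pfkfb3 and Adm in each of the 18 libraries, by zone and feeding state, points being libraries and bars the mean of 3 with its SD. Ndrg1 reaches 12.6 to 15.6 CPM in pericentral libraries at 8 h and at most 5.09 elsewhere, and Adm stays at or under 0.519.

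Counted by libraries that did not overlap, 2 of the 9 members separated the zones in the fed state (28.3% of all tested genes did), 4 at 8 h (23.9%) and 1 at 24 h (22.1%). Against fed, 6 members separated at 8 h (32.2%) and 6 at 24 h (38.7%) in pericentral cells, and 3 at 8 h (31.6%) and 5 at 24 h (36.9%) in periportal cells. Between 8 h and 24 h, 5 separated in pericentral (28.9%) and 3 in periportal cells (25.4%). The median log2 fold change of the 9 members against fed was -0.38 at 8 h in pericentral cells and -0.32 in periportal cells. The medians over all tested genes were 0.01 and 0.01. At 24 h the median of the members was -0.17 in pericentral and 0.18 in periportal cells, against 0.00904 and -0.00165 over all tested genes. Across the 18 libraries the members did not vary as 1 set: Pearson's r between members ranged from -0.80 for Vegfa and Ndrg1 to 0.69 for Hif1a and Vegfa, a description over libraries that share zone and state.

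The wider machinery of the pathway was listed as 25 further genes, of which 22 were tested. Between zones edgeR called 0 of them in each state (8.01%, 7.14% and 4.17% of all genes were called), with 2 at an unadjusted p under 0.05 fed, 2 at 8 h and 0 at 24 h. DESeq2 called 1, 1 and 0, and limma-voom called 0 in each. Averaged over the states edgeR called 1, higher in periportal cells, against 20.3% of all genes. Against fed, 1 was called in pericentral cells at 8 h (lower, against 13.8% of all genes) and 2 at 24 h (lower, against 21.8%). In periportal cells 3 were called at 8 h (1 higher and 2 lower, against 14.4%) and 4 at 24 h (2 higher and 2 lower, against 19.6%). Without any 1 of the PP fed or PP 24 h libraries the last count was 1 or 2, and the periportal count at 8 h was 1 without PP fed replicate 3 or PP 8 h replicate 2. Hsp90aa1, a chaperone of HIF-1α and of many other clients, was lower in all 4 fasting comparisons, for example -1.64 (SE 0.26, edgeR adjusted p = 5.41e-04) at 8 h in pericentral cells. Vhl, whose product recognises hydroxylated HIF, stayed between 9.95 and 13.1 CPM in all 18 libraries, and Hif1an, the asparagine hydroxylase, between 22.2 and 35.2 CPM, neither being called in any comparison. Arnt, the partner of the alpha subunits, fell in periportal cells at 8 h, at -0.54 (SE 0.14, edgeR adjusted p = 0.0159). Its means were lower than fed in the other fasting comparisons too, without a call (log2 fold changes of -0.29 at 8 h and -0.14 at 24 h in pericentral cells and -0.32 at 24 h in periportal cells). Hif3a was not tested, with 0 to 4 counts per library.

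The further hypoxia targets were listed as 65 genes, of which 52 were tested. In the fed state 7 were called between zones (4 higher and 3 lower in periportal cells, against 8.01% of all genes), at 8 h 7 (6 higher and 1 lower, against 7.14%) and at 24 h 4 (3 higher and 1 lower, against 4.17%). Averaged over the states 14 were called, 12 higher and 2 lower, against 20.3% of all genes. The glycolytic enzymes Aldoa and Eno1 were higher in periportal cells in every state, Aldoa by 0.68 (SE 0.10, edgeR adjusted p = 2.90e-04) fed and Eno1 by 0.68 (SE 0.14, edgeR adjusted p = 0.00806) at 24 h. Gapdh was higher at 8 h and 24 h, and Gpi1 and Bhlhe40 at 8 h. Ak4, an adenylate kinase of mitochondria, was higher in periportal cells by 1.07 (SE 0.22, edgeR adjusted p = 0.00488) fed and 1.52 (SE 0.22, edgeR adjusted p = 4.85e-04) at 8 h. Angptl4, an inhibitor of lipoprotein lipase, was lower in periportal cells in the fed state, at -1.02 (SE 0.27, edgeR adjusted p = 0.0275). Tgfa, a growth factor ligand, was lower in each state, as Egln3 was, at -0.92 (SE 0.16, edgeR adjusted p = 0.00129) fed. The median log2 fold change of the 52 was 0.17 fed, 0.19 at 8 h and 0.13 at 24 h, against medians over all genes of 0.00134, 0.01 and 9.42e-04. These counts moved with single libraries: fed they ranged from 3 to 7, at 8 h from 4 to 11 and at 24 h from 0 to 4 when 1 of the 18 was left out. The fed count was 3 or 4 without PC fed replicate 2 or 3 or PP fed replicate 1 or 2. The 8 h count was 4 without PC 8 h replicate 3 or PP 8 h replicate 2 or 3, and 11 without PP 8 h replicate 1. The 24 h count was 0 without PC 24 h replicate 1 or PP 24 h replicate 2, 2 without PC 24 h replicate 2 and 1 without PP 24 h replicate 3.

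With fasting, the called targets went both ways. Of the 52, pericentral cells had 5 higher and 7 lower at 8 h (13.8% of all genes were called) and 10 higher and 9 lower at 24 h (21.8%). Periportal cells had 5 higher and 6 lower at 8 h (14.4%) and 8 of each at 24 h (19.6%). The periportal total of 11 at 8 h was 6 without PP fed replicate 1 and 7 without PP fed or PP 8 h replicate 2. Igfbp1, a binding protein of insulin-like growth factors, Irs2, an insulin receptor substrate, and Angptl4 rose in all 4 comparisons. Angptl4 rose by 2.74 (SE 0.28, edgeR adjusted p = 1.51e-05) in pericentral and 4.27 (SE 0.30, edgeR adjusted p = 6.47e-07) in periportal cells at 8 h. Tfrc, the transferrin receptor, and Bhlhe40, a repressor in the circadian clock, fell in all 4. Slc2a1, the glucose transporter GLUT1, rose in all 4, from 8.71, 10.2 and 11.6 CPM in pericentral fed libraries to 18.7, 18.04 and 19.3 at 8 h, 0.88 (SE 0.15, edgeR adjusted p = 6.52e-04). Bnip3, a receptor for mitophagy, was lower at 8 h in pericentral cells, at -0.54 (SE 0.15, edgeR adjusted p = 0.0246), and higher at 24 h, at 0.83 (SE 0.15, edgeR adjusted p = 0.00101). Ldha was not called in any comparison, and Pgk1 was called only as higher in periportal cells averaged over the states, 0.26 (SE 0.07, edgeR adjusted p = 0.0129).

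**Figure D5:**
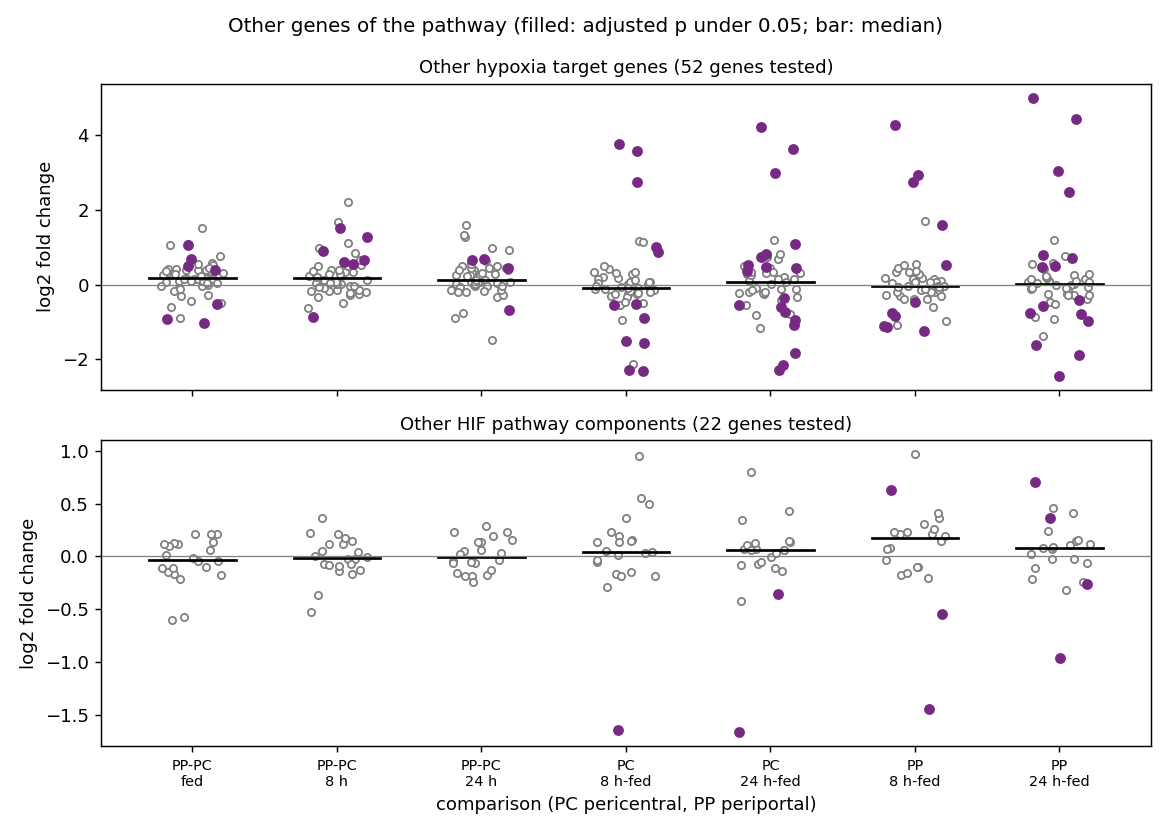
Log2 fold changes of the tested genes in the machinery list (22) and the hypoxia target list (52) in the comparisons of zones in a state and of fasting with fed, with called genes filled and a bar at the median. In the target list called genes lie on both sides of 0 in each fasting comparison.

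The receptors and partners of VEGF-A and adrenomedullin were listed as 11 genes, of which 8 were tested. Between zones 2 were called in the fed state, both lower in periportal cells (8.01% of all genes were called). At 8 h 2 were called, 1 higher and 1 lower (7.14%), and at 24 h 1, lower (4.17%). Averaged over the states 5 were called, 3 higher and 2 lower, against 20.3% of all genes. In that average 6 of the 8 were higher in periportal cells, and the median log2 fold change of the 8 was 0.91. The 3 called higher on average were the VEGF receptors Kdr and Flt1 and the adrenomedullin receptor Calcrl, genes of endothelial cells, at 2.10, 1.62 and 1.73 in log2, named here after their values were seen. Kdr measured 0.246, 0.326 and 0.387 CPM in pericentral and 0.444, 1.29 and 6.66 in periportal libraries at 8 h, highest in PP 8 h replicate 3, where endothelial markers also summed highest, and their part in it was not tested. Nrp2, a co-receptor of VEGF-A, was lower in periportal cells in each state, as Egln3 was. It measured 28.1, 26.3 and 31.3 CPM in pericentral fed libraries and 4.29, 6.79 and 5.22 in periportal fed libraries. Its log2 fold change between zones was -2.40 (SE 0.16, edgeR adjusted p = 3.64e-07) fed, -2.18 (SE 0.17, edgeR adjusted p = 3.11e-06) at 8 h and -2.09 (SE 0.17, edgeR adjusted p = 1.27e-05) at 24 h. It was also lower in all 4 fasting comparisons, from -0.71 to -1.05. Its relative Nrp1 was lower in periportal cells in the fed state, at -0.93 (SE 0.27, edgeR adjusted p = 0.0483).

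For each member called between zones, in a state or averaged over them, or between fasting and fed, the genes with the most similar profile were taken by Pearson's r of log2 CPM over the 18 libraries among 8024 genes of at least 5 CPM on average. Egln3 was most like Clstn3 (0.96), Akr1c6 (0.95) and Nrp2 (0.94). Vegfa was most like Mavs (0.92), Snrk (0.91) and Ttl (0.90), and Hif1a most like Kpna3, Ywhae and Kpna1 (0.89 for each). Egln1 was most like Ripk4 (0.90), Tmem256 (0.87) and Kif21a (0.86). Egln2 was most like Cux2 (0.93), followed by Sall1 and Slc27a2 (0.86 for each). Ndrg1 was most like Eps8l2 (0.84), Pitpnm1 and Nup85 (0.82 for each), and Ankrd37 most like Tuba1b (0.82). Members were left out of the 8024 genes, so none of them could be named as closest. The highest r with another member ran from 0.10 for Ndrg1 to 0.69 for Hif1a and Vegfa. A highest value among so few genes cannot be set against a highest value among 8024.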

How the data were processed

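Total RNA of hepatocytes was extracted with RNeasy and TRIzol and made into 18 libraries with NEBNext Ultra, per the labels. The deposited table holds the authors' estimated counts per gene. The submitters' processing notes name kallisto 0.46.0 and the genome build mm10. How transcripts were summed to genes, the annotation and the use of strand are not given in the sources used here. Each column carried the name of 1 library, and 0 columns were left over. The estimated counts were rounded to whole numbers. Genes were filtered with filterByExpr (12477 of 28030 kept) and tested by edgeR 4.0.16 (quasi-likelihood F test, robust fit) in R 4.3.3, with TMM scaling, 1 fit over all 18 libraries and 1 coefficient per group. Benjamini-Hochberg adjustment covered all 12477 genes, and a call is an adjusted p under 0.05. The standard error is the size of the log2 fold change over the square root of F, and 95% intervals are normal intervals from it. The script was tested on simulated data. No library was a copy of another.

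The members and gene lists were chosen with earlier results of these data known. From the lists, the genes named were up to 3 per direction and comparison with the largest called fold change and at least 5 CPM in the higher group, plus Slc2a1, Ldha, Pgk1, Bnip3, Vhl, Hif1an, Arnt and Hif3a; of those most like a member, 3 were taken. A fold change of a member is given where it was called or had an unadjusted p under 0.05. Alternatives were DESeq2 1.42.0 (its size factors and its Wald test), limma-voom of limma 3.58.1, upper-quartile factors, other count filters, only the groups compared, a replicate block and each library left out. Leaving out both PC 24 h replicate 2 and PP 8 h replicate 3 was added after seeing the data, as was the block within the 24 h libraries, whose same-numbered zone libraries deviated together (r = 0.12 to 0.17, against -0.12 to -0.02 for other pairs). Positions are from GENCODE M21 and promoters from RefSeq, both on mm10. Rhbg was not analysed here.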

Additional observations from a re-analysis of the deposited data

How the results depend on the processing

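No fold change of a member with an unadjusted p under 0.05 in the main edgeR fit changed direction under any alternative run. The direction of other fold changes was not compared between runs. The counts of members called that moved by over 1.5 times were as follows. In periportal cells at 8 h against fed the count was 3, and it was 0 without PC 24 h replicate 2 and PP 8 h replicate 3 together, 1 with limma-voom, 1 with no count filter, 0 with only those groups in the fit, and 0 to 3 with 1 library left out. At 24 h it was 5, 2 with only those groups, and 0 to 5 with 1 library left out (0 without PP fed replicate 2 or PP 24 h replicate 1). In pericentral cells at 24 h it was 1, 2 with the DESeq2 Wald test or only those groups, and 0 to 1 with 1 library left out. Between 8 h and 24 h it was 2 in pericentral cells, 1 without both libraries named, and 1 to 2 with 1 left out, and it was 0 in periportal cells and 1 with DESeq2. Between zones in the fed state it was 1, 2 with only those groups, and 1 to 2 with 1 library left out.

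For the machinery list, the count at 8 h in pericentral cells was 1, and 2 without both libraries, with DESeq2, with the filter at 1 CPM, with only those groups or with upper-quartile factors, and 1 to 2 with 1 library left out. Between zones it was 0 in the fed state and 1 without both libraries, with DESeq2, with only those groups or with upper-quartile factors, and 0 at 8 h and 1 with DESeq2, with 0 to 1 in each state with 1 library left out. In periportal cells it was 4 at 24 h, 2 with only those groups and 1 to 4 with 1 left out, and 3 at 8 h and 1 to 4 with 1 left out. For the hypoxia targets, the zone count at 24 h was 4, 2 without both libraries and 0 to 4 with 1 left out, that at 8 h was 7, 3 with only those groups and 4 to 11 with 1 left out, and that in the fed state 7 and 3 to 7 with 1 left out. In periportal cells at 8 h it was 11, 7 with only those groups and 6 to 12 with 1 left out. The cause of these moves was not tested, beyond the fewer libraries that some fits hold.

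Replicate numbers did not pair the libraries over all 6 groups: deviations of same-numbered libraries correlated at -0.12 to 0.21, with 7 of 45 pairs over 0.1, so a replicate block is only an alternative. With it the periportal change of Hif1a at 24 h had an edgeR adjusted p of 0.0523, its mean zone difference 0.0521 and the periportal change of Ndrg1 at 8 h 0.0589, and no other member call changed. At 24 h the 3 same-numbered zone pairs all exceeded 0.1, and with the replicate block in those 6 libraries 1 member was called between zones, Egln3 at -1.83. Depth limited Adm and Ankrd37, and the 3 libraries per group limit all comparisons.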
